A study of Mus musculus with 30 samples.

Results

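Cytochrome P450 genes encode heme enzymes of the endoplasmic reticulum and the mitochondria. They were followed here in mouse liver after insulin or phosphate-buffered saline (PBS). A gene was taken when its symbol was Cyp followed by a family number, subfamily letters and a gene number. Cyp7a1, Cyp7b1, Cyp8b1 and Cyp27a1, which make bile acids, were left out. This gave 73 of the 29117 genes in the expression table, while 21 other P450 symbols, 12 of them pseudogenes, stayed outside. C57BL/6J mice, an inbred strain, were 10 weeks old and had fasted for 12 to 16 h before human insulin at 0.7 U/kg or PBS was injected into the peritoneum. The left lobe of the liver was taken at 5 sampling points within 4 h, with 3 libraries per treatment and point, which makes 15 per treatment and 30 in all. The labels number the points 1 to 5 without minutes, so no spacing in time and no uninjected baseline is assumed. Nothing in the labels ties each library to a separate animal beyond calling the replicates biological, and should some share an animal, the p-values would cover technical spread alone.

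A P450 enzyme splits molecular oxygen at its heme iron and puts 1 of the atoms into its substrate, using electrons that come from P450 oxidoreductase (Por) or, in mitochondria, from ferredoxin. Families 1 to 3 mainly oxidise drugs, toxins and steroids, and family 4 hydroxylates fatty acids. Others have a narrow task, such as the breakdown of retinoic acid by the family 26 enzymes or the first step of vitamin D activation by Cyp2r1. In the liver most P450 genes are read in hepatocytes, many of them only around the central vein, and nuclear receptors such as Nr1i2 (PXR), Nr1i3 (CAR) and Ppara switch them on. Several of the mouse genes differ between the sexes through growth hormone.

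The values were FPKM, fragments scaled by transcript length and by the mapped fragments of the library. Their depth is unknown, because low values did not fall on whole reads, and its effect on precision could be read only from the spread between libraries. Hepatocyte markers were abundant (Alb, 25059 to 37137 FPKM). Xist, read in females, reached at most 0.0481 FPKM, and Ddx3y on the Y chromosome ran from 12.3 to 25.3 FPKM in the 30 libraries. Insulin libraries were sequenced on lanes 1 and 2 and PBS libraries on lanes 3, 4 and 5, which means that the effects of lane and treatment cannot be told apart.

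**Figure D1:**
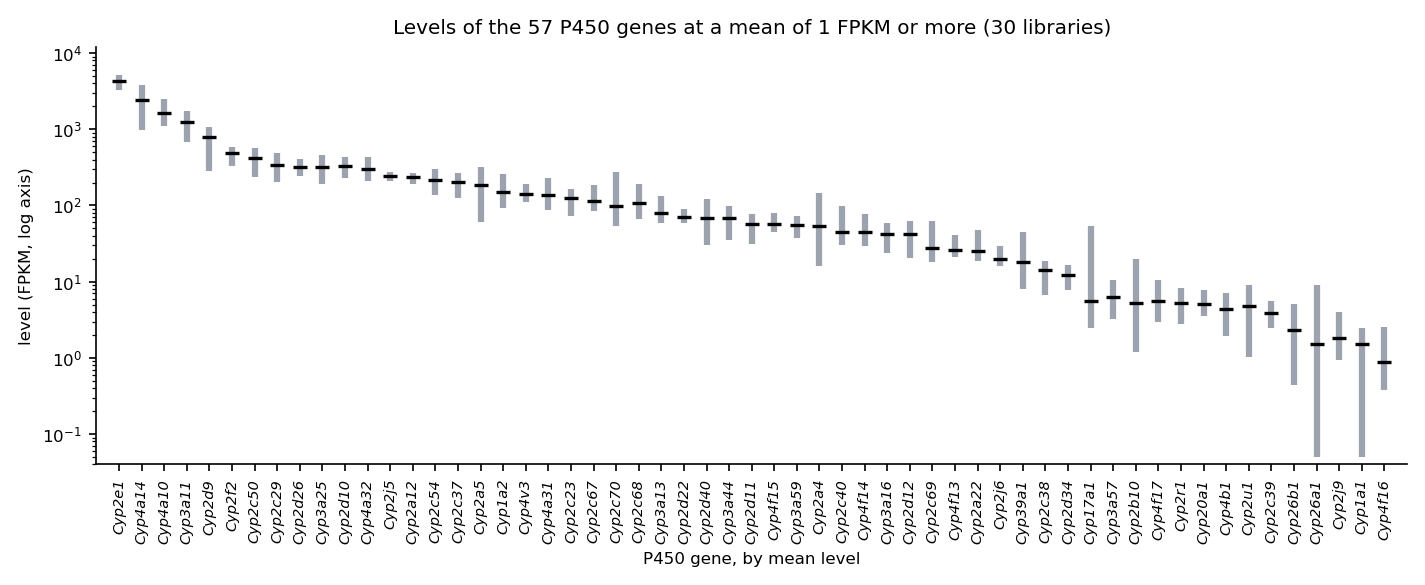
Level of the 57 P450 genes with a mean of 1 FPKM or more, on a log axis, ordered by mean. Grey bars span the lowest to the highest of 30 libraries and ticks are medians, and the bars of Cyp26a1 and Cyp1a1, with libraries at 0, end just above the lower edge. Cyp2e1 leads at a median of 4271 FPKM.

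The liver P450 transcripts were dominated by a few genes. Cyp2e1, which oxidises ethanol and small solvents, had the highest mean over the 30 libraries, 4325 FPKM. It was followed by the fatty acid hydroxylases Cyp4a14 (2279 FPKM) and Cyp4a10 (1619 FPKM), then by Cyp3a11 (1234 FPKM), the main mouse family 3 enzyme. Cyp2d9 (818 FPKM), Cyp2f2 (467 FPKM), Cyp2c50 (417 FPKM) and Cyp2c29 (350 FPKM) came next. By mean, 24 genes stood at 100 FPKM or more, 19 from 10 to under 100, 14 from 1 to under 10 and 16 under 1 FPKM. Since FPKM is scaled per length, these levels can be compared between genes. Together the 73 genes held 2.14% to 2.92% of all FPKM in a library.

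A gene entered the tests when 3 or more libraries held it at 1 FPKM or above, which kept 58 of the 73. The 15 that were not tested include genes of steroid-making organs, Cyp11a1, Cyp19a1 and Cyp21a1, which reached at most 0.0386, 0.0175 and 0.104 FPKM. Cyp1b1 (at most 0.533 FPKM) and Cyp46a1, the brain cholesterol hydroxylase (at most 1.83 FPKM), were also low. The others were Cyp2ab1, Cyp2b13, Cyp2b23, Cyp2b9, Cyp2c55, Cyp2s1, Cyp4f18, Cyp4f37, Cyp4f39 and Cyp4x1. A cell with no value was set to 0 FPKM, which touched 17 of the 73 genes and 3 of the 58.

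Most P450 genes sit in tandem clusters of close relatives, and this limits how far single members can be told apart. On GRCm38, per GENCODE M21, 8 Cyp2d genes lie on chromosome 15 from 82370527 to 82794294, and 12 Cyp2c genes on chromosome 19 from 39007019 to 40187333. A stretch of chromosome 5 from 145345279 to 146113287 holds 6 Cyp3a genes. On chromosome 7, 11 genes of the Cyp2a, Cyp2b, Cyp2f, Cyp2g and Cyp2s subfamilies lie from 25802475 to 27133660. Of the 73 genes, 25 shared over 20% of their 50-base stretches with the transcript of another gene, and 18 shared none. For stretches of 100 bases, 4 genes shared over 20%. Coding sequences of Cyp2a4 and Cyp2a5 were 98.45% identical (23 differences in 1485 bases), those of Cyp3a25 and Cyp3a59 97.49% and those of Cyp4a10 and Cyp4a32 97.19%. How the authors' quantification split reads between such copies is not given in the sources used here, so the values of each copy are uncertain. Cyp3a44 was listed at 4.64% to 6.04% of the level of Cyp3a11 in every library, and Cyp3a16 at 3.08% to 3.70% of it. Those narrow ranges held while Cyp3a11 itself ran from 673 to 1714 FPKM, so the 3 genes are not counted as separate observations. Cyp3a11 shared 14.8% of its 50-base stretches and 0.312% of its 100-base stretches with other genes. What keeps the ratios narrow was not tested.

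Promoter letters are shown for Cyp26a1 and some Cyp3a genes, which differed between treatments, and for Cyp2a4 and Cyp2a5, which varied among the points, to show how alike the copies are and where known motifs lie. Promoters of Cyp2u1 and Cyp39a1 were not analysed here. They are RefSeq windows of GRCm38.p6, reading 5′ to 3′ on the strand of the gene. Capitals mark motif matches on either strand. The Cyp26a1 stretch is the 100 bases before the start (chr19:37697708-37697807, plus strand), and its capitals cover the direct repeat of AGTTCA with a spacer of 5 bases, read on the other strand, a known form of retinoic acid element (DR5).
Cyp26a1: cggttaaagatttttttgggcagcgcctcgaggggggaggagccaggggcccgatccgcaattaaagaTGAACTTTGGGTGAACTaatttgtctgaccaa
That repeat stood in this window and in 8 of 32851 windows in all, and it was added to the motifs after the values of Cyp26a1 were seen.

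The Cyp3a stretches run from 220 to 90 bases before the start, and capitals mark AGGTCA (the nuclear receptor core), GTAAACA (forkhead factors) and CAAAGTCCA (HNF4).
Cyp3a11 (chr5:145879944-145880074, minus strand): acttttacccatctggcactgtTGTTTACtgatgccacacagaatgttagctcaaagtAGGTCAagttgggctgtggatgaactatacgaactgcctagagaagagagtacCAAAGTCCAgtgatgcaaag
Cyp3a44 (chr5:145805964-145806094, minus strand): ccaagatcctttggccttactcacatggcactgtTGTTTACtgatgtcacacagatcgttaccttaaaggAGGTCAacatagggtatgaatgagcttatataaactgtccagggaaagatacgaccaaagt
Cyp3a25 (chr5:146009707-146009837, minus strand): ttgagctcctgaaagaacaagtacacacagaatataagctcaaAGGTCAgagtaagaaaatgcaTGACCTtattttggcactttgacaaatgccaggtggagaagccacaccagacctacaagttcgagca
Cyp3a57 (chr5:145345049-145345179, plus strand): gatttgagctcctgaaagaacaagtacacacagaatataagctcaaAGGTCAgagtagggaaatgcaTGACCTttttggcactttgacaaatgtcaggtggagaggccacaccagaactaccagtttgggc
In these stretches Cyp3a11 and Cyp3a44 carry the forkhead letters and 1 AGGTCA, and Cyp3a16 carries the forkhead and HNF4 letters without AGGTCA, while Cyp3a25 and Cyp3a57, and also Cyp3a59, carry 2 AGGTCA cores on opposite strands.

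For Cyp2a4 and Cyp2a5 the shown stretch runs from 110 to 41 bases before the start, and capitals mark the other-strand reading of TTATGCAA, the D-box bound by Dbp and its relatives.
Cyp2a4 (chr7:26307082-26307151, plus strand): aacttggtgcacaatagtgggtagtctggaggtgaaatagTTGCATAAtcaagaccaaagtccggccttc
Cyp2a5 (chr7:26835229-26835298, plus strand): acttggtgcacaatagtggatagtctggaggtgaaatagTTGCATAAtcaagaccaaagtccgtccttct
RefSeq windows of 300 bases, from 250 before to 50 after the start, were held for 58 of the 73 genes (66 windows). AGGTCA stood on either strand in 28.8% of these windows and in 16.3% of all 32851, GTAAACA in 12.1% and 3.65%, CAAAGTCCA in 10.6% and 0.475%, and TTATGCAA in 7.58% and 0.743%. AGAACA, a glucocorticoid receptor core, stood in 25.8% and 19.0%, and GCGTG, the xenobiotic core, in 19.7% and 32.4%. CACGTG, the E-box, stood in 3.03% and 7.15%, and TGACGTCA, the cAMP element, in 0 and 1.79%. None of these motifs contains another, near-identical copies count separately, and a match is a description of letters and not of a bound site.

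A PBS library stood apart from all others in several P450 genes and touches every comparison at point 5. This was PBS replicate 2 of point 5. Cyp2d9, a steroid hydroxylase typical of male liver, was at 279 FPKM there and between 753 and 1082 FPKM in the other 14 PBS libraries. Cyp2b9, typical of female liver, was at 14.6 FPKM there and at most 0.598 FPKM in the other 29 libraries, 25 of which had no value. Cyp17a1, a steroid hydroxylase and lyase, was at 53.2 FPKM there and at most 14.4 FPKM in the other PBS libraries. Cyp2a4 stood at 148 FPKM and Cyp2b10 at 19.6 FPKM in it, both the highest of the 30 libraries. It was thus low in the male-typical Cyp2d9 and high in the female-typical Cyp2b9. Ddx3y was nevertheless present, and Xist was not above 0.0481 FPKM in any library. A full set of sex-typical genes was not examined. This was noticed after the values were seen and has no test. Where leaving it out changes the call of a P450 gene, the adjusted p with it and without it are both given below.

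**Figure D2:**
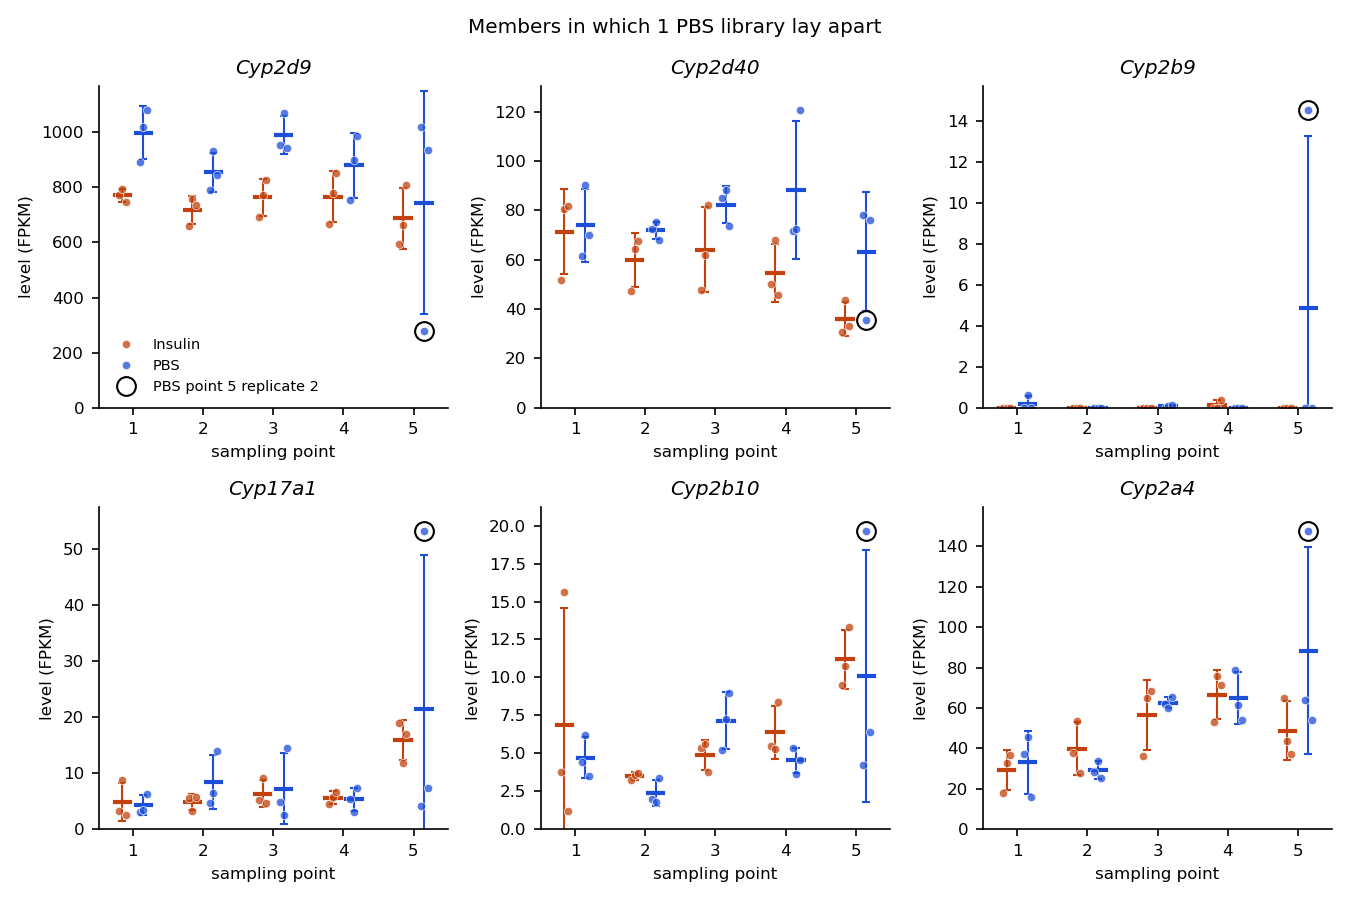
FPKM of 6 P450 genes in each library against sampling point, insulin in orange and PBS in blue. Bars are means with SD of 3 libraries, and the ring marks PBS replicate 2 of point 5, which is low for Cyp2d9 (279 FPKM) and Cyp2d40 (35.4 FPKM) and high for the other 4 genes.

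Treatments were compared point by point with limma on log2(FPKM + 1), a model over all 30 libraries whose p-values were adjusted by the Benjamini-Hochberg method over all 13589 tested genes. A difference below is insulin minus PBS on that scale, with its SE, and it understates the change of low genes. A gene rose or fell when its adjusted p was below 0.05. At point 1 none of the 58 P450 genes passed, in either direction, and of all genes 0% rose and 0.00736% fell. At point 2, 0 rose and 1 fell (all genes: 0.618% rose, 0.736% fell). Point 3 had 1 P450 gene up and 2 down (all genes: 2.19% up and 7.26% down), and point 4 had 3 up and 2 down (all genes: 2.82% and 10.4%). Point 5 had 3 up and 5 down (all genes: 2.96% and 16.1%). In both directions together 5.17%, 8.62% and 13.8% of the 58 passed at points 3, 4 and 5. Of all genes 9.45%, 13.2% and 19.1% did, so these shares of P450 genes, as deposited, were not above the background. All but 2 of the 17 calls, which belong to 14 genes, were ended by at least 3 of the other settings, and each of those 15 was ended by leaving out at least 1 library.

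The direction of these counts depends on the scaling. The median difference of all tested genes was -0.14 at points 3 and 4 and -0.17 at point 5, so that a gene at 0 is above the middle of the table. After median-ratio scaling of the libraries, which moves that median, point 4 had 8 of the 58 P450 genes up and 1 down, and point 5 had 11 up and 1 down. Of all 13589 tested genes 924 rose and 814 fell at point 4, and 1166 and 1119 at point 5. Quantile normalization gave 8 and 1 P450 genes at point 4, and 8 and 3 at point 5 (all genes: 966 and 800, and 1123 and 1102). At point 3 median-ratio scaling gave 1 risen and 1 fallen (all genes: 689 and 488). Quantile normalization gave 1 and 0 there (all genes: 650 and 505). Left-out libraries moved the counts as well. At point 3, 1 P450 gene was called without insulin replicate 3 or PBS replicate 1, and PBS replicate 2 left 0 calls when removed. The 5 calls of point 4 became 1 without insulin replicate 2 or PBS replicate 3. The 8 calls of point 5 became 2 when insulin replicate 1 was removed, 4 when insulin replicate 3 was, 3 when PBS replicate 3 was, and 9 when the library that stood apart was.

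**Figure D3:**
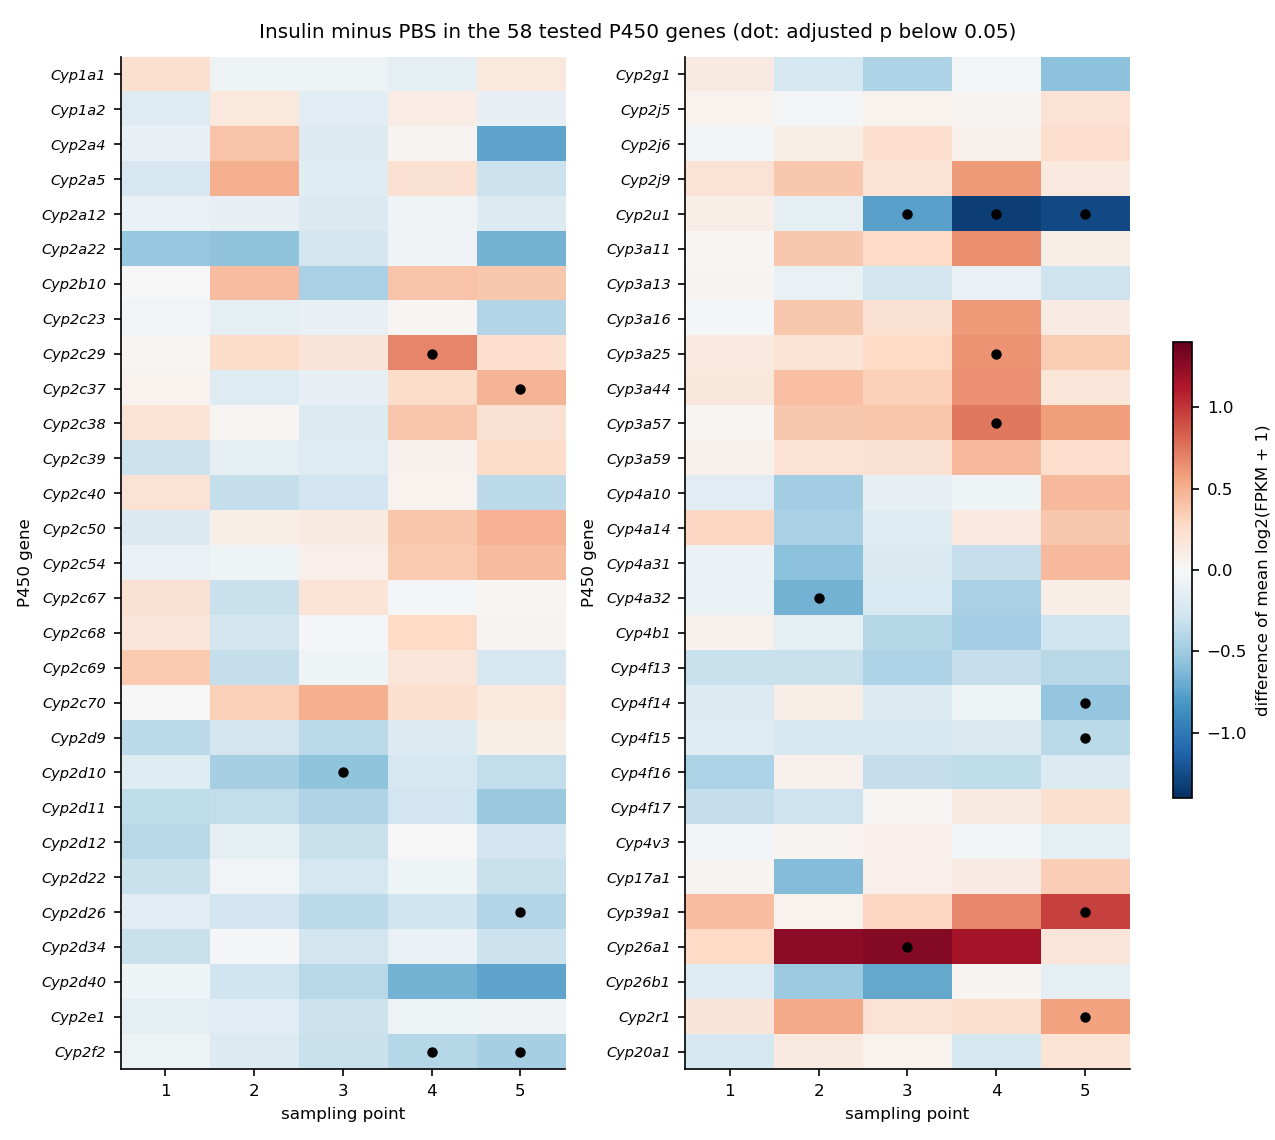
Insulin minus PBS on the log2(FPKM + 1) scale for the 58 tested P450 genes (vertical axis, by subfamily) at the 5 sampling points (horizontal axis), as deposited, with no rescaling. Red is higher and blue lower in insulin, a dot marks an adjusted p below 0.05, and Cyp2u1 holds 3 of the 17 dots.

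Cyp2u1 gave the firmest difference among the P450 genes. Its product hydroxylates long-chain fatty acids such as arachidonic acid, and the gene lies outside the clusters, on chromosome 3 from 131288441 to 131303227 (minus strand). In the 3 insulin libraries its level was 7.41, 7.91 and 5.92 FPKM at point 1, and 3.92, 3.08 and 5.01 FPKM at point 2. It was 3.27, 2.61 and 2.17 FPKM at point 3, then 1.78, 1.02 and 2.06 FPKM at point 4, and 2.01, 1.87 and 2.36 FPKM at point 5. Levels in insulin livers were thus lowest at points 4 and 5. In PBS livers Cyp2u1 stood at 5.96, 5.93 and 7.87 FPKM at point 1, and at 4.75, 3.72 and 4.80 FPKM at point 2. It stood at 4.62, 6.62 and 4.60 FPKM at point 3, at 5.11, 5.98 and 5.29 FPKM at point 4, and at 5.65, 5.02 and 9.13 FPKM at point 5. PBS libraries therefore stayed above 3.7 FPKM at all points, and from point 3 on every insulin library lay below every PBS library of its point.

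The group means of Cyp2u1 at point 4 were 1.62 ± 0.539 FPKM in insulin and 5.46 ± 0.461 FPKM in PBS (SD, n = 3), a ratio of 0.297. The differences were -0.77 ± 0.19 at point 3 (limma adjusted p = 0.0148), -1.32 ± 0.19 at point 4 (adjusted p = 0.000139) and -1.27 ± 0.19 at point 5 (adjusted p = 0.000164). Calls at points 4 and 5 held in each of the 13 other settings with a value, and at point 5 without the library that stood apart the difference was -1.42 (adjusted p = 0.000257). The call at point 3 was lost under quantile normalization and when insulin replicate 3 or PBS replicate 2 was removed, with adjusted p from 0.0107 to 0.0831 over the settings. At points 1 and 2 the differences were 0.09 and -0.13 and did not pass. Cyp2u1 was the only one of the 58 whose difference depended on the point by the limma F test (adjusted p = 0.00467), against 1.77% of all genes. That call was lost (0 P450 genes) when the 5 libraries of insulin replicate 1 or of PBS replicate 1 were left out, and with the filter at a mean of 5 FPKM, which Cyp2u1 does not reach.

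**Figure D4:**
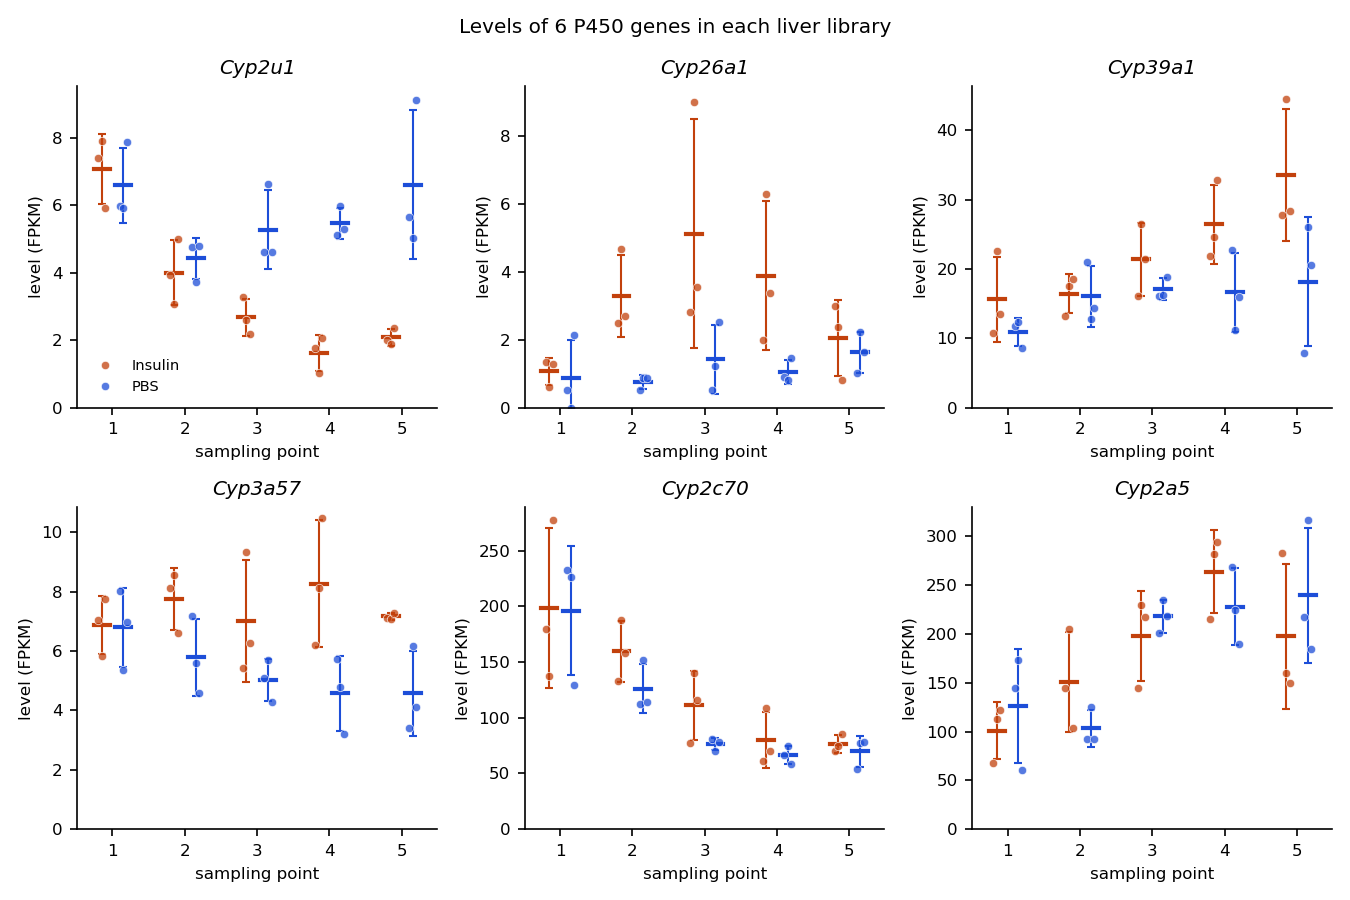
FPKM of 6 P450 genes in each library against sampling point, insulin in orange and PBS in blue, with bars for the mean and SD of 3 libraries. Cyp2u1 falls to 1.62 FPKM in insulin at point 4 and stays at 5.46 FPKM in PBS, while Cyp2c70 falls in both treatments.

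The family 26 enzymes clear retinoic acid, and Cyp26a1 is a classical retinoic acid target in liver. Insulin libraries held Cyp26a1 at 1.33, 0.60 and 1.28 FPKM at point 1, and at 2.48, 4.66 and 2.68 FPKM at point 2. They held it at 2.82, 9.00 and 3.54 FPKM at point 3, at 1.98, 6.29 and 3.37 FPKM at point 4, and at 2.97, 2.38 and 0.799 FPKM at point 5. Insulin replicate 2 was the highest at points 2, 3 and 4. In PBS the levels were 0.515, 0 and 2.13 FPKM at point 1, and 0.515, 0.882 and 0.882 FPKM at point 2. They were 0.517, 1.22 and 2.53 FPKM at point 3, 0.886, 0.815 and 1.45 FPKM at point 4, and 1.02, 2.23 and 1.62 FPKM at point 5. At points 2, 3 and 4 every insulin library lay above every PBS library, and at points 1 and 5 they overlapped. At point 2 the insulin mean of Cyp26a1 was 4.31 times that of PBS without passing (limma adjusted p = 0.117). The differences were 1.29 ± 0.40 at point 3 (limma adjusted p = 0.0456) and 1.17 ± 0.40 at point 4 (adjusted p = 0.0561), so only point 3 passed, while point 4 also passed after median-ratio scaling (adjusted p = 0.040) and quantile normalization (adjusted p = 0.0330). That call was lost in 7 of 13 other settings, among them the pseudocount of 0.1 and leaving out insulin replicate 2, insulin replicate 3, PBS replicate 1 or PBS replicate 2. Averaged over the 5 points Cyp26a1 was higher by 0.83 ± 0.18 (adjusted p = 0.000713), a call kept in all 13 settings. Its relative Cyp26b1 had a difference of -0.71 ± 0.28 at point 3 with no overlap between groups (0.622 ± 0.208 against 1.76 ± 1.03 FPKM, SD, n = 3; adjusted p = 0.0986) and did not pass at any point.

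Cyp2r1 and Cyp39a1 were each higher in insulin at point 5. Cyp2r1, the vitamin D 25-hydroxylase (chromosome 7, 114549682 to 114562972, with no 50-base stretch shared with another gene), stood at 4.38, 5.32 and 5.48 FPKM in insulin at point 5. The PBS libraries of that point held it at 3.59, 2.77 and 2.99 FPKM, without overlap. Its difference was 0.56 ± 0.17 (limma adjusted p = 0.0234), and 0.50 with adjusted p = 0.0789 without the PBS library that stood apart. Leaving out insulin replicate 2, insulin replicate 3 or PBS replicate 3 also ended the call. Averaged over the points, Cyp2r1 was higher by 0.34 ± 0.08 (adjusted p = 0.000844), and this held in all 14 other settings.

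Cyp39a1 hydroxylates 24-hydroxycholesterol on a side route of bile acid synthesis. At point 5 it stood at 27.8, 44.6 and 28.4 FPKM in insulin and at 7.93, 26.1 and 20.6 FPKM in PBS. Insulin libraries all lay above PBS libraries there, by 0.96 ± 0.32 (limma adjusted p = 0.0388), and by 1.28 ± 0.34 (adjusted p = 0.0148) without the PBS library that stood apart. Leaving out any other single library of point 5 ended that call. Averaged over the points Cyp39a1 was higher by 0.48 ± 0.14 (adjusted p = 0.00897), lost only without the insulin replicate 2 series. Cyp17a1 spread the most of all tested P450 genes, with a within-group SD of 0.81 on the log2 scale against a median of 0.25 for the 58 and 0.22 for all genes, and its differences lay between -0.60 and 0.34 with none past the threshold.

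In family 3, 2 of the 7 genes rose at point 4, 6 after median-ratio scaling and 5 after quantile normalization. At that point Cyp3a57 stood at 6.21, 8.13 and 10.5 FPKM in insulin and at 5.72, 4.80 and 3.20 FPKM in PBS, with no overlap. The difference was 0.74 ± 0.21 (limma adjusted p = 0.0240). Cyp3a25, a more abundant relative, stood at 312, 412 and 452 FPKM in insulin and at 317, 259 and 189 FPKM in PBS at that point. Its groups overlapped, and the difference of 0.63 ± 0.19 passed (adjusted p = 0.0331). Cyp3a11 stood at 1336, 1362 and 1714 FPKM in insulin and at 1174, 1029 and 673 FPKM in PBS. Those groups did not overlap, but the difference of 0.65 ± 0.24 did not pass (limma adjusted p = 0.0699). It passed after median-ratio scaling, at 0.81 (adjusted p = 0.0184), and not after quantile normalization. PBS replicate 3 was the lowest library for each of these 3 genes at point 4, and leaving it out, or insulin replicate 2 or 3, ended the calls of Cyp3a57 and Cyp3a25. Leaving out PBS replicate 2 ended that of Cyp3a25 too. At point 5 the difference of Cyp3a57 was 0.58 ± 0.21 (adjusted p = 0.0534), and 0.78 ± 0.22 (adjusted p = 0.0221) without the PBS library that stood apart. It also passed after median-ratio scaling (adjusted p = 0.0146) and quantile normalization (adjusted p = 0.0142).

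Within family 2, whose members handle most drugs and many steroids, the single-point calls in the Cyp2c genes were higher in insulin and those in the Cyp2d genes lower. Cyp2c29, which oxidises drugs and arachidonic acid, stood at 411, 474 and 424 FPKM in insulin and at 315, 311 and 202 FPKM in PBS at point 4. All insulin libraries lay above all PBS libraries, by 0.69 ± 0.18 (limma adjusted p = 0.0167), lost without insulin replicate 2 or PBS replicate 3. At point 5 Cyp2c37 stood at 218, 224 and 191 FPKM in insulin and at 180, 126 and 154 FPKM in PBS, a difference of 0.47 ± 0.15 (adjusted p = 0.0291). Without PBS replicate 2, the lowest library, it was 0.34 (adjusted p = 0.147), and insulin replicate 1, insulin replicate 2 and PBS replicate 3 each carried the call too.

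Cyp2d10 stood at 238, 286 and 281 FPKM in insulin and at 420, 407 and 359 FPKM in PBS at point 3. These groups were well apart, at -0.56 ± 0.14 (limma adjusted p = 0.0265), but the call was lost under both scalings (adjusted p up to 0.107 over the settings). It was also lost without insulin replicate 1, PBS replicate 1 or PBS replicate 2. At point 5 Cyp2d26 fell by 0.40 (adjusted p = 0.0441), and this was lost without the PBS library that stood apart (-0.36, adjusted p = 0.119), and also after median-ratio scaling and without insulin replicate 1, insulin replicate 3 or PBS replicate 3.

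That library decides which Cyp2d genes are called at point 5. With it 7 of 8 had differences below 0 and 1 fell, Cyp2d26. Of all 13589 tested genes 2194 fell at point 5 with that library and 1538 without it. Cyp2d10, Cyp2d11, Cyp2d34 and Cyp2d40 had differences of -0.35, -0.52, -0.31 and -0.73 with it and did not pass (limma adjusted p = 0.115, 0.0782, 0.265 and 0.0531). Without it Cyp2d9, Cyp2d10, Cyp2d11, Cyp2d34 and Cyp2d40 fell, by 0.52, 0.54, 0.81, 0.59 and 1.10 (limma adjusted p = 0.0178, 0.0227, 0.00831, 0.0259 and 0.00626). Cyp2d9 changed sign, since with the library its difference was 0.08 (adjusted p = 0.860). In the other PBS libraries of point 5 Cyp2d9 stood at 1020 and 934 FPKM, and in the insulin libraries at 593, 662 and 810 FPKM.

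Cyp2f2, which oxidises naphthalene and is typical of hepatocytes around the portal vein, was lower in insulin at points 4 and 5. It stood at 362, 379 and 434 FPKM in insulin and at 515, 457 and 586 FPKM in PBS at point 4. At point 5 the levels were 326, 361 and 381 FPKM against 512, 452 and 513 FPKM. Neither point had an overlap, and the differences were -0.40 ± 0.12 (limma adjusted p = 0.0252) and -0.47 ± 0.12 (adjusted p = 0.00825). Median-ratio scaling ended both calls, as did the loss of insulin replicate 1. At point 4 leaving out insulin replicate 2, PBS replicate 1 or PBS replicate 3 ended the call too. Without the PBS library that stood apart the difference at point 5 was -0.53 (adjusted p = 0.00958). Cyp2f2 shares no 50-base stretch with another gene.

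The fatty acid hydroxylases of family 4 gave small and fragile differences. Cyp4a32 stood at 221, 212 and 289 FPKM in insulin and at 341, 373 and 429 FPKM in PBS at point 2. This was the only call at that point, at -0.67 ± 0.18 (limma adjusted p = 0.0431), and 8 of 14 other settings ended it, the scalings and the loss of insulin replicate 1 or 2 or of PBS replicate 2 or 3 among them. Cyp4a32 is a near copy of Cyp4a10 and was listed at 14.3% to 23.3% of it. Cyp4a10, a classical Ppara target, stood at 1292, 1222 and 1531 FPKM in insulin and at 1689, 1958 and 2004 FPKM in PBS at point 2. At point 5 the order was the other way round, with 1881, 2022 and 2499 FPKM in insulin and 1762, 1292 and 1621 FPKM in PBS. Neither difference passed (-0.49, adjusted p = 0.151, and 0.45, adjusted p = 0.0644), but that of point 5 passed after median-ratio scaling (0.67, limma adjusted p = 0.00908) and not after quantile normalization (adjusted p = 0.0948). Cyp4f14 fell by 0.54 (adjusted p = 0.0223) and Cyp4f15 by 0.38 (adjusted p = 0.0274) at point 5; both hydroxylate leukotrienes or fatty acids, and both calls were lost under either scaling and without the PBS library that stood apart (adjusted p = 0.0672 and 0.161). Both were also lost without insulin replicate 1, Cyp4f14 without PBS replicate 3, and Cyp4f15 without insulin replicate 2 or 3.

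Several well-known P450 genes did not pass at any point. Cyp1a2, the caffeine demethylase, had differences between -0.18 and 0.15, and Cyp2e1 between -0.30 and -0.05. Cyp2b10, the main Nr1i3 target, had differences between -0.45 and 0.44 with an SE of 0.47. Cyp4a14 had differences between -0.46 and 0.38. At point 4 the 95% interval for Cyp1a2 ran from -0.31 to 0.53, which does not show that the treatments gave equal levels.

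Averaged over the 5 points, 11 of the 58 P450 genes rose and 16 fell, where 7.89% of all genes rose and 37.6% fell. In percent, 19.0% of the P450 genes rose and 27.6% fell, and 46.6% were called in all, against 45.5% of all genes. This contrast compares 15 insulin with 15 PBS libraries and so follows lane as well as treatment. Scaling changed its balance: median-ratio scaling gave 18 risen and 6 fallen, and quantile normalization 17 and 8. It changed that of all 13589 tested genes too, with 2718 risen and 2775 fallen after median-ratio scaling, and 2678 and 2748 after quantile normalization. Without the PBS library that stood apart 11 rose and 18 fell, and without the 5 libraries of PBS replicate 3 only 17 genes were called. The median difference was -0.04 for the 58 genes and -0.13 for all genes.

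**Figure D5:**
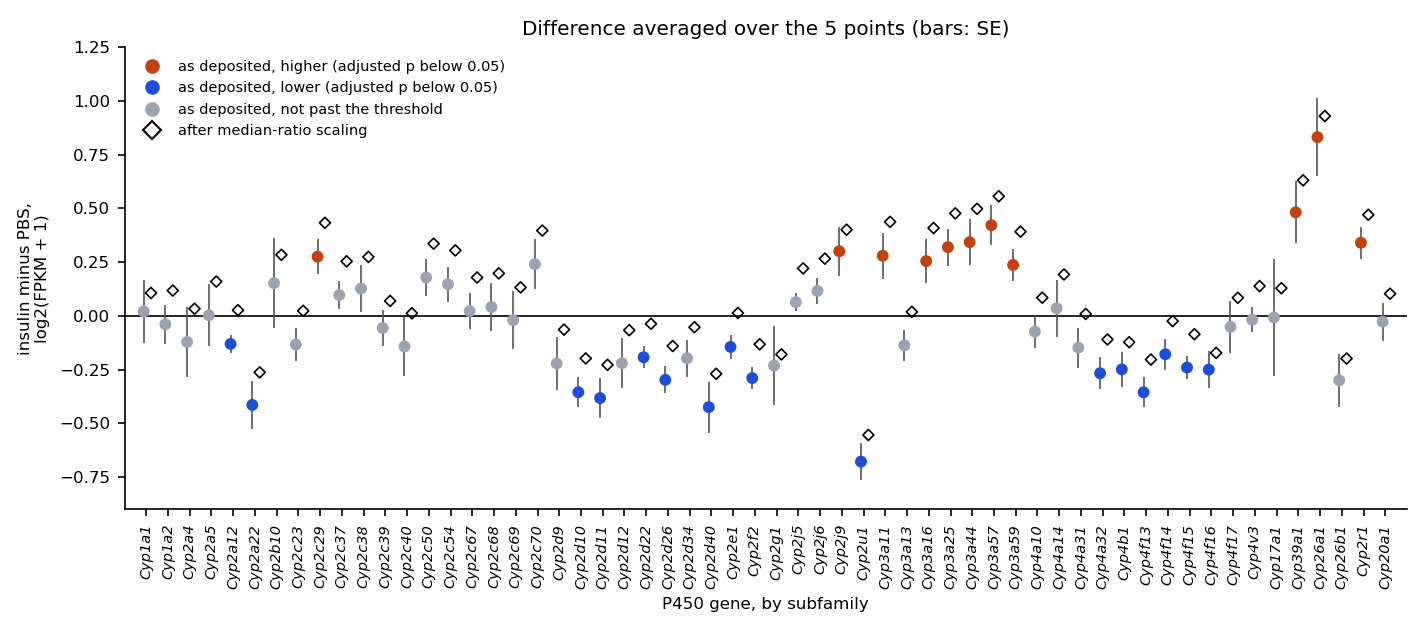
Insulin minus PBS averaged over the 5 points for the 58 tested P450 genes, on the log2(FPKM + 1) scale. Filled circles with SE bars are the values as deposited, coloured by direction where adjusted p is below 0.05, and open diamonds follow median-ratio scaling, which lifts nearly all values. The 6 clustered Cyp3a genes and Cyp26a1 stay above 0 in both.

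The Cyp3a block was the clearest subfamily pattern on the average. Of 7 genes, the 6 that lie together on chromosome 5 rose, and the same count of 6 was reached after either scaling. Their differences ran from 0.24 (Cyp3a59, limma adjusted p = 0.0109) to 0.42 (Cyp3a57, adjusted p = 0.000897). Cyp3a11 had means of 1348 FPKM in insulin and 1120 FPKM in PBS and a difference of 0.28 ± 0.11 (adjusted p = 0.0344). Cyp3a13, which lies at a separate place on the chromosome, did not rise, at -0.14. The 6 shared from 8.88% to 28.0% of their 50-base stretches with other genes, and at most 6.05% of their 100-base stretches. They are not taken as 6 separate observations. Only Cyp3a25 and Cyp3a57 held in every other setting; the remaining 4 were lost without the PBS replicate 3 series, and Cyp3a16, with adjusted p up to 0.407 over the settings, was lost in 6 of 14.

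The Cyp2d cluster on chromosome 15 was lower. On the average all 8 had differences below 0 and 5 fell: Cyp2d10 (-0.36), Cyp2d11 (-0.38), Cyp2d22 (-0.19), Cyp2d26 (-0.30) and Cyp2d40 (-0.42). Of all genes 37.6% fell, and their median difference was -0.13. Cyp2d10 and Cyp2d11 shared 40.5% and 37.2% of their 50-base stretches with other genes. The 8 are therefore not taken as separate observations. After either scaling 3 of 8 fell. Cyp2d9 had a difference of -0.22 (limma adjusted p = 0.143) with the PBS library that stood apart and -0.34 (adjusted p = 7.94e-05) without it. Cyp2d12 and Cyp2d34 also passed only without it (limma adjusted p = 0.0139 and 0.00587, against 0.127 and 0.0618 with it). Of the 5 tested Cyp4f genes 4 fell, Cyp4f13 (-0.36), Cyp4f14 (-0.18), Cyp4f15 (-0.24) and Cyp4f16 (-0.25), beside the same 37.6% of all genes. After either scaling 1 of 5 fell. Cyp4f14 passed with the PBS library that stood apart (limma adjusted p = 0.0469) and not without it (adjusted p = 0.0694).

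Of the 12 tested Cyp2c genes, Cyp2c29 rose (0.28 ± 0.08, limma adjusted p = 0.00819) and none fell, while median-ratio scaling gave 6 risen and quantile normalization 5. Cyp2u1 had the lowest average, -0.68 ± 0.09 (adjusted p = 2.80e-06). Cyp2f2 had an average of -0.29 (adjusted p = 0.000122). Cyp2e1, the most abundant, had means of 4113 FPKM in insulin and 4536 FPKM in PBS and passed at -0.14 (limma adjusted p = 0.0421). Its difference was 0.013 after median-ratio scaling and -0.22 after quantile normalization (limma adjusted p = 0.0138), which kept the call. Only 6 of 14 other settings kept it. Leaving out the series of insulin replicate 1 or 3, or of any PBS replicate, was among those that did not. Cyp2a12 (-0.13) also turned under median-ratio scaling, to 0.026. The others that passed were Cyp2j9 (0.30), Cyp2a22 (-0.41), Cyp4a32 (-0.27) and Cyp4b1 (-0.25). Of the 27 calls 10 held in every other setting, those of Cyp26a1, Cyp3a57, Cyp2r1, Cyp3a25, Cyp2u1, Cyp2d11, Cyp4f13, Cyp2d10, Cyp2d26 and Cyp2f2.

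Change among the points within a treatment was tested apart from the comparison of treatments. In insulin livers 6 of the 58 P450 genes varied among points, where 13.3% of all genes did. In PBS livers 3 did, where 3.27% of all genes did. Cyp2c70, an enzyme that makes muricholic acids in mice, varied in both. Its insulin libraries held 179, 138 and 278 FPKM at point 1 and 69.9, 74.4 and 85.6 FPKM at point 5. Its PBS libraries held 233, 227 and 129 FPKM at point 1 and 54.1, 77.6 and 77.8 FPKM at point 5. The mean went from 198 to 76.6 FPKM in insulin (limma F test adjusted p = 0.00114) and from 196 to 69.8 FPKM in PBS (adjusted p = 0.00142). Insulin minus PBS for Cyp2c70 did not pass at any point, with 0.50 ± 0.26 at point 3 (adjusted p = 0.210).

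Cyp2a5 and Cyp2a4, near copies that hydroxylate coumarin and testosterone and whose promoters carry the D-box shown above, varied among the points as well. In PBS, Cyp2a5 stood at 144, 173 and 60.3 FPKM at point 1, at 92.7, 125 and 92.1 FPKM at point 2 and at 201, 235 and 219 FPKM at point 3. The insulin means were 101 ± 29.1 FPKM at point 1 and 264 ± 42.3 FPKM at point 4 (SD, n = 3). Every point 1 library of Cyp2a5 thus lay below every point 3 library in PBS, and below every point 4 library in insulin. The F tests gave adjusted p = 0.0296 in insulin and 0.0417 in PBS for Cyp2a5 by limma, and 0.0352 in PBS for Cyp2a4. Without the PBS library that stood apart the PBS calls of Cyp2a4 and Cyp2a5 were lost (adjusted p = 0.0523 and 0.0681) and only Cyp2c70 remained of the 3.

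Of the other genes that varied among the points of the insulin livers, Cyp26b1 had its lowest level at point 3 (0.622 FPKM) and its highest at point 5 (3.54 FPKM; limma F test adjusted p = 0.00106). Cyp4a10 went from a mean of 1287 FPKM at point 1 to 2134 FPKM at point 5 (adjusted p = 0.0258). Cyp4b1 went from 5.96 to 3.08 FPKM (adjusted p = 0.0120), and Cyp2u1 had the widest range of those that passed, 1.64 (adjusted p = 7.82e-06). Without the PBS library that stood apart 8 varied in insulin, with Cyp4a31 and Cyp2d40 added (limma F test adjusted p = 0.0376 and 0.0281, against 0.0561 and 0.0849 with it). With any 1 of the 3 insulin series left out, 3 P450 genes varied in insulin. In PBS the count was 1 without insulin replicate 2, insulin replicate 3 or PBS replicate 3, and 0 without PBS replicate 1 or 2.

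Genes that serve or switch P450 genes were counted as lists, chosen for their roles. Of 9 redox partners, which pass electrons to P450 enzymes, none rose at any single point, while 3, 2 and 3 fell at points 3, 4 and 5 (0, 0 and 1 after either scaling), where 7.26%, 10.4% and 16.1% of all genes fell. Cyb5r3, the cytochrome b5 reductase, stood at 54.3 ± 1.89 FPKM in insulin and 86.7 ± 9.30 FPKM in PBS at point 5 (SD, n = 3), a difference of -0.66 (limma adjusted p = 0.00123) that passed after either scaling. Por itself did not pass at any point. Cyb5a, which was lower by 0.28 to 0.33 at points 3 to 5, lost its calls under either scaling. Of 13 genes of heme synthesis and breakdown, 6 fell and none rose at point 5, where 16.1% of all genes fell, and 3 fell after either scaling. Summed over 5 erythroid markers, point 5 held 219 to 262 FPKM in insulin and 311 to 458 FPKM in PBS, and 1 of the 5, Alas2, fell; their part in the heme genes was not tested. Alad, the second enzyme of heme synthesis, stood at 21.7 ± 5.85 FPKM against 42.7 ± 11.7 FPKM there (-0.94, adjusted p = 0.00478). At point 4 Hmox1, which breaks heme down, rose by 1.24 (adjusted p = 0.0321) with an insulin SD of 37.0 FPKM around a mean of 39.2 FPKM.

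Of 30 regulators 28 were tested. The list holds genes that earlier results of these data already show, so its counts are no independent evidence. At point 3 it had 2 genes up and 11 down (3 and 7 after median-ratio scaling), at point 4 it had 1 up and 8 down, and at point 5 it had 1 up and 7 down. Of all genes 2.19%, 2.82% and 2.96% rose and 7.26%, 10.4% and 16.1% fell at those points. Nr1i3, the receptor that drives Cyp2b10 and Cyp2c29, stood at 48.9 ± 11.1 FPKM in insulin and 96.3 ± 7.37 FPKM in PBS at point 3 (SD, n = 3; -0.99, limma adjusted p = 0.00217). Rxra, its partner, fell at points 3, 4 and 5 by 0.66, 0.59 and 0.75. Cebpa, a hepatocyte transcription factor, fell by 0.91, 0.70 and 0.78 at the same points. The coactivator Ppargc1a rose by 2.64 at point 3 (adjusted p = 1.76e-11), and Dbp, which binds D-boxes, fell by 1.80 at point 4 (adjusted p = 0.0160). Ppara fell by 0.91 at point 3 (adjusted p = 0.000781) and by 0.60 at point 4. No test here links a regulator to a P450 gene. The median difference of the list was -0.49 at point 3, and that of all genes -0.14.

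Of 13 other phase I enzymes 1 rose, the flavin monooxygenase Fmo2 (0.94, limma adjusted p = 0.0126), and 1 fell, Fmo5 (-0.61, adjusted p = 0.0255), at point 5. Of the 21 P450 symbols kept outside the set 9 were listed, and none of the 9 passed at any single point as deposited. After median-ratio scaling 1 of them rose at point 4. Averaged over the points 3 of the 9 rose and 1 fell, where 7.89% of all genes rose and 37.6% fell. Either scaling gave the same 3 and 1.

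Markers of other liver cells moved with treatment in places. Of all genes 7.26%, 10.4% and 16.1% fell at points 3, 4 and 5. Summed over 6 sinusoidal endothelial markers, point 5 held 37.5 to 49.0 FPKM in insulin and 54.9 to 59.4 FPKM in PBS, and 3 of the 6 fell. Their sums were also apart at point 3 (47.0 to 55.2 against 57.3 to 72.1 FPKM) and point 4 (43.1 to 55.6 against 59.9 to 73.5 FPKM). At each of those points 1 of the 6 fell, and none did after either scaling. Summed over 6 Kupffer markers, point 4 held 66.8 to 83.9 FPKM in insulin and 86.9 to 185 FPKM in PBS, and 2 of the 6 fell. After either scaling 1 of the 6 fell. The 7 pericentral hepatocyte markers summed to 872 to 1063 FPKM in insulin and 1145 to 1227 FPKM in PBS at point 4, with 2 of 7 fallen. Their sums were already apart at point 1, at 813 to 1135 FPKM in insulin and 1151 to 1216 FPKM in PBS. At point 3 they were apart too (923 to 981 against 1004 to 1220 FPKM), and at points 2 and 5 they overlapped. The 6 periportal markers were apart at point 1 (1745 to 1875 FPKM in insulin and 1898 to 2493 FPKM in PBS). At point 5 they overlapped, at 1756 to 2239 FPKM in insulin and 1897 to 2485 FPKM in PBS, with 2 of 6 fallen. Sums over 7 hepatocyte markers overlapped as well, at 38850 to 49865 FPKM and 39527 to 50820 FPKM at point 5. Of these 7, 1 rose at point 4 and 1 at point 5, where 2.82% and 2.96% of all genes rose. At point 5 median-ratio scaling gave 2 risen, and quantile normalization 1 risen and 1 fallen. Sums over 4 lymphocyte markers reached at most 1.87 FPKM, and those over 3 neutrophil markers at most 7.43 FPKM. Stellate markers had no call at any point, and 1 of 3 tested cholangiocyte markers fell, at point 4. Of 4 tested Y-linked genes 1, Ddx3y, rose at points 3, 4 and 5, by 0.46, 0.38 and 0.50 (limma adjusted p = 0.0247, 0.0475 and 0.00934). The adipocyte marker Adipoq was listed at 0 in 29 libraries, and the adrenal marker Star reached 0.830 FPKM. The part of these markers in the P450 differences was not tested. In such bulk tissue, fewer cells of a type and less RNA per cell cannot be told apart.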

How the data were processed

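The authors deposited FPKM per gene. HISAT2 2.1.0, SAMtools 1.9, StringTie 2.0.3 and the build GRCm38 (mm10) are named, per the submitters' processing notes. No annotation or strand setting is stated in these sources, so overlapping and antisense genes may share reads. Empty cells (32.2%) were set to 0. Values were fitted as log2(FPKM + 1) with limma 3.58.1 in R 4.3.3, using 10 group means and a variance trend on the mean level (20 degrees of freedom), for genes at 1 FPKM or more in 3 libraries. The model was tested on simulated data. Members and lists were chosen with earlier results of these data known. Named were 11 genes set for their roles, the 8 most abundant, called members whose groups did not overlap, the widest in each F test and up to 5 genes per list; Cyp2b9, Cyp2d40 and others in which a library stood apart were named after their values were seen. Other settings tried were the pseudocount, filter, scaling, replicate block, lane, single points and left-out libraries. The DR5 motif and the fit without PBS replicate 2 of point 5 alone were added after the values were seen. Gene positions and shared stretches came from GENCODE M21, promoters from RefSeq.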

Additional observations from a re-analysis of the deposited data

Results flagged for a closer look

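Cyp2u1 drew attention because its insulin effect differed between sampling points (limma F test adjusted p = 0.00467). Cyp4a10 drew attention because its insulin and PBS libraries lay fully apart in opposite directions at 2 points. Its differences were -0.49 at point 2 and 0.45 at point 5 on the log2 scale. It was picked by looking through all tested P450 genes, and how many of all genes show such a pattern was not counted. Neither of those differences passed as deposited, while that of point 5 passed after median-ratio scaling (limma adjusted p = 0.00908). The limma F test of whether the difference of Cyp4a10 depended on the point did not pass (adjusted p = 0.243). Its level among the points of the insulin livers did vary (limma F test adjusted p = 0.0258).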

How the results depend on the processing

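Counts below are P450 genes called. Without a filter on low values points 2, 3, 4 and 5 had 0, 1, 3 and 5, and the F test of the PBS arm had 1. With a filter at a mean of 5 FPKM there were 1 at point 3, 0 in the interaction F test and 3 in that of the insulin arm. Median-ratio scaling gave 0 at point 2 and 9 at point 4, and quantile normalization 0 at point 2, 1 at point 3 and 9 at point 4. Replicate numbers did not pair the libraries (15 same-numbered pairs, r from -0.11 to 0.12); the replicate block gave 6 at point 3 and did not move another count by over 1.5 times; 5 of 15 insulin libraries correlated best with their own number. With each point fitted on its own 6 libraries there were 0 at point 2, 1 at point 4 and 1 at point 5. Leaving out libraries gave 0 to 1, 0 to 3, 1 to 5 and 2 to 9 for points 2 to 5 in turn; the call of point 2 was lost without insulin replicate 1 or 2 or PBS replicate 2 or 3. Leaving out a series of 5 libraries gave 17 (without PBS replicate 3) to 25 for the average, 0 to 1 for the interaction, 3 to 7 for the insulin arm and 0 to 3 for the PBS arm. Without PBS replicate 2 of point 5 alone, a fit added after seeing the data, these were 29, 1, 8 and 1. Where 1 library is left out its group keeps 2, whose spread is taken to be that of the other groups. Cyp2d9 at point 5 ran from -0.52 (without PBS replicate 2) to 0.42 over the left-out libraries. On the average the direction turned for Cyp2e1 (0.013) and Cyp2a12 (0.026) with median-ratio scaling and for Cyp2a12 (0.024) with quantile normalization; the cause was not tested. Of 1541 values of single P450 genes under these settings, 1370 were counted as unchanged. These kept their side of the threshold, and either their direction or, where neither fit passed, a shift below the within-group SD. In 149 a call was lost with the direction kept. Lane as a random effect (correlation 0.0264) or, in F tests, as a fixed effect moved no count by over 1.5 times.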
